A study of Rattus norvegicus with 48 samples.

Results

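The miR-199a and miR-214 group of circulating microRNAs consists of rno-miR-199a-3p, rno-miR-199a-5p and rno-miR-214-3p (written without the rat prefix from here on), the mature products of the neighbouring rat genes Mir199a2 and Mir214. The members were chosen by name, and all 3 were found among the 645 mature miRNAs of the count table. The plasma came from 12 male rats with a bone defect in the calvaria, the roof of the skull, of which 6 were selected as strong and 6 as weak regenerators by microCT of new bone. Each rat was bled at baseline (week 0) and at weeks 1, 4 and 8 after surgery, which gave 48 samples. The study's methods name Sprague-Dawley rats of 12 weeks of age, whereas another passage of its text names Wistar rats. The defects had been left empty or filled with a collagen hydroxyapatite scaffold. This scaffold was used alone, with a plasmid for both BMP2 and miR-590-5p, or with extracellular vesicles of mesenchymal stromal cells. Which of these 4 treatments each sequenced rat received is not given in the labels, so both groups are mixtures of treatments. The mixtures also differ: the study's text places rats with the scaffold alone among the strong regenerators only, and more of those with the plasmid-carrying scaffold or the vesicles among the weak. In every comparison of strong with weak regenerators, outcome and treatment therefore cannot be told apart. The labels call the baseline samples unknown for regeneration, and these were placed by the animal they name. The groups were picked from the extremes of the outcome, and there was no unoperated group, so healing cannot be told apart from ageing or from repeated sampling.

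A miRNA is cut from a hairpin precursor whose 5p and 3p arms can each yield a mature strand, and the strand loaded into Argonaute silences messages that pair with its seed. The miR-199a and miR-214 hairpins lie on an RNA transcribed opposite to the dynamin gene Dnm3, and in the embryo this transcript is expressed in mesenchyme, including that of the developing skeleton. miR-214 is known as an inhibitor of osteoblast activity, with the osteoblast transcription factor Atf4 among its targets, and miR-199a is studied in cartilage, fibroblasts and muscle. miR-199a-3p is also abundant in blood platelets.

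The mature sequences are shown because the results turn on the different behaviour of the 2 miR-199a strands. They are the RefSeq records of the GRCr8 assembly, written 5′ to 3′ with the seed (bases 2 to 8) in capitals.
miR-199a-5p: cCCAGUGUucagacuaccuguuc
miR-199a-3p: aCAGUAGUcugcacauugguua
miR-214-3p: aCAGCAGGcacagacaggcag

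All 3 lay on the plus strand of chromosome 13 within the span of Dnm3 (chr13:76892381-77371346). miR-199a-5p (chr13:77116255-77116277) and miR-199a-3p (chr13:77116294-77116315) were the 2 arms of Mir199a2, and miR-214-3p (chr13:77121713-77121733) was the 3p arm of Mir214, with 5310 bases between the genes. The seeds of miR-199a-3p and miR-214-3p shared 5 of 7 positions. Those of the miR-199a arms shared 3 of 7, and those of miR-199a-5p and miR-214-3p shared 2 of 7. Of the 645 miRNAs in the count table, 583 had a RefSeq mature sequence, and 0 of the others among these carried any of the 3 seeds. A second miR-199a gene that gives the same mature strands could not be told apart from Mir199a2 in mature reads.

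All 3 members were read in all 48 samples. Levels are given as RPM, counts scaled to a total of 1000000 miRNA reads per sample. Mean levels over the samples were 1101 RPM for miR-199a-3p, 543 RPM for miR-199a-5p and 689 RPM for miR-214-3p. They ranked 71, 101 and 90 of the 645 miRNAs by mean level. The lowest count of a member in any sample was 48 for miR-199a-3p, 79 for miR-199a-5p and 65 for miR-214-3p. The other entries of the locus in the count table had few reads. miR-214-5p had a read in 2 of 48 samples, and miR-3120, encoded on the opposite strand over Mir214, in 11 of 48. The RefSeq record of miR-214-5p is 17 bases long, equal to the minimum read length. Whether the other strand of the miR-214 hairpin was absent from plasma was therefore not tested. A read covers a whole mature miRNA, so no length correction was applied, and ratios between members are ratios of reads.

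Total miRNA counts ran from 393259 to 1586398 per sample, with a median of 796311. The p-values of the main edgeR fits measured the spread between samples, with the 4 samples of a rat treated as independent. Those of the ratio tests and of the correlations across rats measured the spread between rats. The week 8 samples stood apart: UniSp2, a synthetic RNA added at extraction, gave between 91.1 and 144 reads per 1000 miRNA reads in all 12 of them. In the other 36 samples it gave between 23.3 and 60.4. Week 8 and any handling particular to these samples cannot be told apart. Changes are therefore given with the scaling by TMM, which sets the bulk of miRNAs equal between samples, and where it matters with a scaling to UniSp2, which reads levels against the added RNA.

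miR-199a-3p and miR-214-3p were both lower in plasma at week 8 than at baseline in 12 of 12 rats, while miR-199a-5p, from the same hairpin as miR-199a-3p, was not called changed. miR-199a-3p fell 6.99-fold and miR-214-3p 4.20-fold. Of all 595 miRNAs tested at this week, 42.9% were called changed and 28.1% were called lower, against 2 of the 3 members. The share was higher among abundant miRNAs such as the members. Of the 310 with a mean of at least 10 RPM, 197 were called in either direction. Among these 197, miR-199a-3p had the change of rank 2 and miR-214-3p that of rank 12 from the most negative.

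For miR-199a-3p, the baseline values of the 6 strong regenerators had a lowest value of 1124 RPM, a median of 1923 and a highest of 6155. Those of the 6 weak regenerators were 692, 1242 and 2016 RPM. At week 8 the strong regenerators had 169, 302 and 401 RPM, and the weak regenerators 122, 152 and 473 RPM. All 12 week 8 samples were below all 12 baseline samples, and the highest baseline value, in rat 29, was far above the next. The log2 fold change was -2.80 (SE 0.33, n = 12 rats, edgeR FDR 3.8e-10). Within rats, the level at week 8 was between 0.0635 and 0.330 of the baseline level.

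For miR-214-3p, the lowest, median and highest baseline values were 731, 1041 and 2334 RPM in the strong regenerators. In the weak regenerators they were 650, 939 and 1422 RPM. At week 8 they were 139, 219 and 458 RPM in the strong and 105, 197 and 493 RPM in the weak regenerators. Here too every week 8 sample was below every baseline sample. The log2 fold change was -2.07 (SE 0.22, n = 12 rats, edgeR FDR 1.4e-11), and the level within a rat was between 0.137 and 0.346 of its baseline.

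For miR-199a-5p, the lowest, median and highest baseline values were 429, 736 and 1628 RPM in the strong and 214, 493 and 869 RPM in the weak regenerators. At week 8 they were 307, 624 and 755 RPM in the strong regenerators. The weak regenerators had 235, 362 and 1541 RPM. The time points overlapped throughout, with the level lower in 8 rats and higher in 4. The log2 fold change was -0.16 (SE 0.25, n = 12 rats, edgeR FDR 0.645), close to the median of -0.13 over the 310 miRNAs with a mean of at least 10 RPM.

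**Figure D1:**
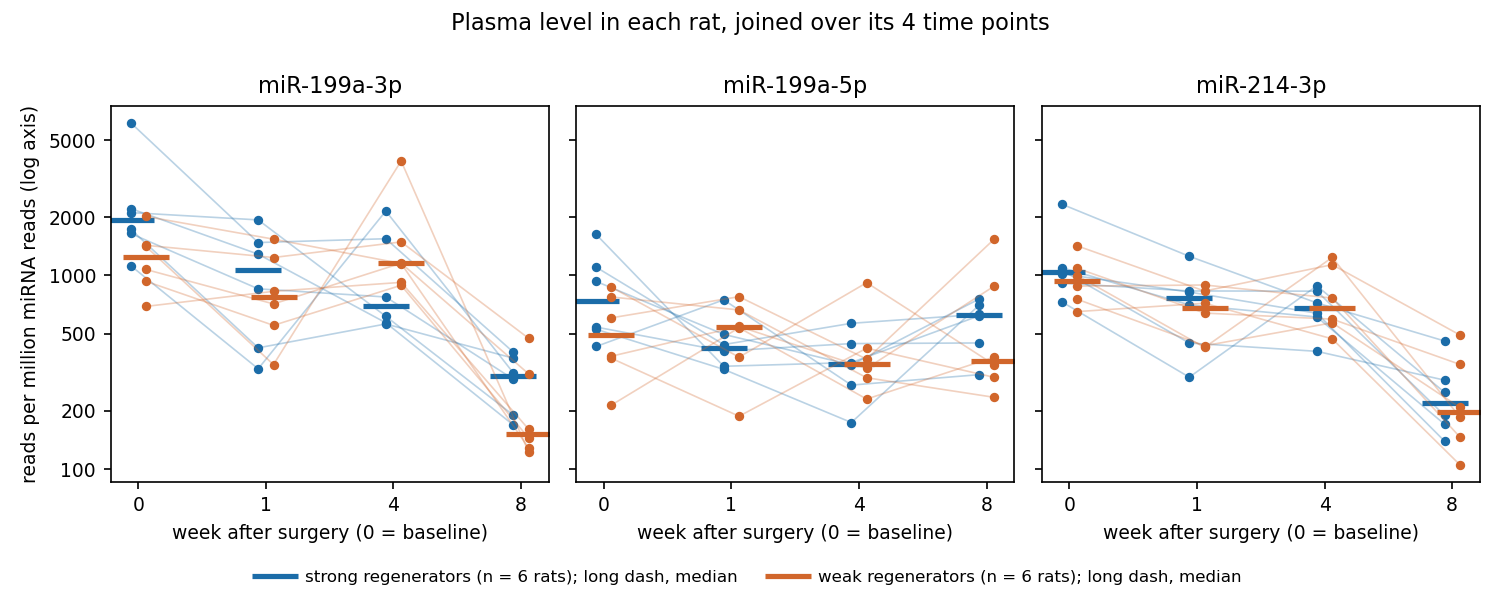
Level of each member in each rat, in RPM on a log axis, by week after surgery. Points are samples, thin lines join the samples of a rat, and long dashes are group medians (6 rats per group). All week 8 points of miR-199a-3p and miR-214-3p lie below all of their baseline points, whereas those of miR-199a-5p overlap.

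At week 8 the scaling decided whether miR-199a-5p was called, whereas miR-199a-3p and miR-214-3p were called lower with either. Scaled to UniSp2, the median change of the 310 miRNAs at week 8 moved from -0.13 to -2.01, and 496 miRNAs were called lower and 1 higher, in place of 167 and 88. At weeks 1 and 4 the median moved less, from -0.03 to -0.32 and from 0.08 to -0.29, and the week 1 calls turned from 20 lower and 32 higher to 58 lower and 3 higher. On the UniSp2 scale the log2 fold changes at week 8 were -4.72 (SE 0.40) for miR-199a-3p, -3.97 (SE 0.26) for miR-214-3p and -2.14 (SE 0.33, edgeR FDR 7.9e-08) for miR-199a-5p. All 3 members were thus called lower, with miR-199a-5p near the median of all miRNAs and the other members below it.

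**Figure D2:**
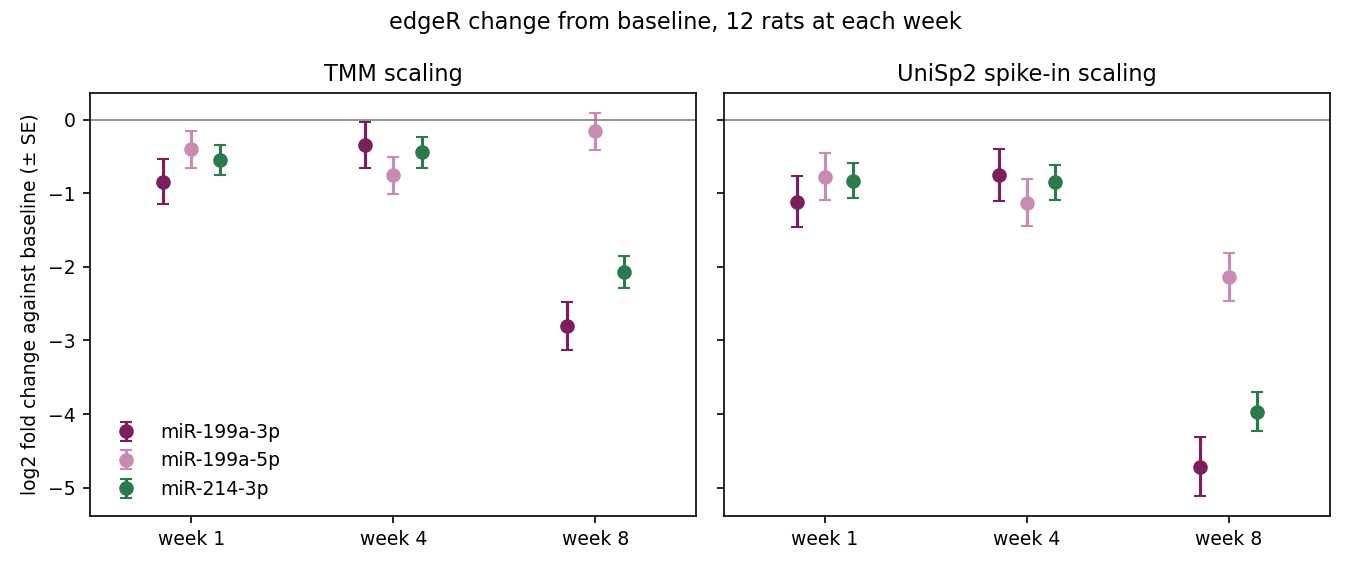
Log2 fold change of each member against baseline at weeks 1, 4 and 8 (points; bars are ± SE of the edgeR fit, 12 rats per week), with TMM scaling on the left and scaling to the UniSp2 spike-in on the right. miR-199a-5p lies at -0.16 at week 8 with TMM and at -2.14 with UniSp2, above the other members in both panels.

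At weeks 1 and 4 a single call was made among the members with TMM scaling, that of miR-199a-3p at week 1. In that comparison 1 of the 3 members was called, against 20.2% of the 257 miRNAs tested and 7.78% called lower. miR-199a-3p had a lowest value of 329, a median of 840 and a highest of 1935 RPM over the 12 rats at week 1, against 692, 1539 and 6155 RPM at baseline. It was lower in 11 of 12 rats, although the ranges overlapped. Its log2 fold change was -0.84 (SE 0.31, edgeR FDR 0.0483), and the call was lost when any 1 of 9 of the 12 rats was left out. Without rat 29 the change was -0.63 with an FDR of 0.170, and with the rat as a block it was -0.76 with an FDR of 0.0662.

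miR-214-3p at week 1 ran from 298 to 1255 RPM with a median of 712, against a baseline range of 650 to 2334 and a median of 1009 RPM. It was lower in 10 of 12 rats. The log2 fold change of -0.55 (SE 0.21) missed the threshold at an edgeR FDR of 0.0505 and passed it with the rat as a block (-0.51, FDR 0.0462) and with UniSp2 scaling (-0.83, FDR 0.0155, where 13.8% of miRNAs were called lower). miR-199a-5p at week 1 ran from 187 to 776 RPM with a median of 468, against 572 at baseline, with a log2 fold change of -0.40 (SE 0.25, FDR 0.292).

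At week 4, with TMM scaling, 0 of the 3 members were called, where 4.19% of the 645 miRNAs tested were and 4.03% were called lower. The medians over 12 rats were 1036 RPM for miR-199a-3p, 350 RPM for miR-199a-5p and 679 RPM for miR-214-3p. The log2 fold changes against baseline, none of which passed, were -0.76 (SE 0.26, edgeR FDR 0.0955) for miR-199a-5p, -0.44 (SE 0.21, FDR 0.255) for miR-214-3p and -0.34 (SE 0.31, FDR 0.564) for miR-199a-3p. With UniSp2 scaling 2 of the 3 were called lower, miR-199a-5p (-1.13, FDR 0.0152) and miR-214-3p (-0.85, FDR 0.0110), where 10.9% of miRNAs were, and miR-199a-3p was at -0.75 (FDR 0.164). miR-199a-3p spread widely between rats at this week, from 0.251 to 2.76 of the baseline level.

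Most of the fall of miR-199a-3p and miR-214-3p therefore lay between weeks 4 and 8. In the comparison of these weeks 38.2% of 557 miRNAs were called and 25% were called lower. Of the 310 miRNAs with a mean of at least 10 RPM, 172 were called in either direction. miR-199a-3p fell by 2.46 on the log2 scale (SE 0.33, edgeR FDR 1.2e-08), the most negative change among the 172 called miRNAs with at least 10 RPM. miR-214-3p fell by 1.63 (SE 0.21, FDR 1.0e-08), and each was lower in 12 of 12 rats. miR-199a-5p had a log2 difference of 0.60 (SE 0.25, FDR 0.0557), higher at week 8 in 9 of 12 rats, and with UniSp2 scaling this turned to -1.01 (FDR 0.0044), while the calls of this comparison went from 139 lower and 74 higher to 459 lower and 1 higher. Between weeks 1 and 4 none of the members was called, where 0.155% of the 645 miRNAs were.

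Ratios of members within a sample do not depend on depth or on the scaling. They can still depend on any handling particular to the week 8 samples, which cannot be told apart from the week. The read ratio of miR-199a-3p to miR-199a-5p had a lowest value of 0.691, a median of 2.90 and a highest of 5.57 at baseline. At week 8 it had 0.165, 0.465 and 0.897. The 3p arm was thus the more abundant in reads in most rats at baseline and the less abundant in all 12 at week 8. The log2 ratio fell by 2.54 on average (SD 1.08) and in 12 of 12 rats, with an exact two-sided sign-flip permutation p of 0.000488, the smallest that 12 rats allow (adjusted over 9 tests, 0.0022). Tested by the median in place of the mean, the change was -2.93 and the call was lost (exact permutation p of 0.0156, the smallest that a median of 12 rats allows, adjusted 0.0527).

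At week 1 the arm ratio had a median of 1.78 and was lower than at baseline in 10 of 12 rats. The mean log2 change of -0.54 (SD 0.65) had an exact permutation p of 0.0195 (adjusted, 0.0439). This call was lost when any 1 of 9 of the 12 rats was left out (adjusted exact permutation p of up to 0.0879) and when the median was tested (-0.65, adjusted 0.0527). At week 4 the median was 2.96 and the change of 0.23 (SD 1.25) did not pass (exact permutation p of 0.569, adjusted 0.641). Rats ran from 1.26 to 9.24 at that week.

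**Figure D3:**
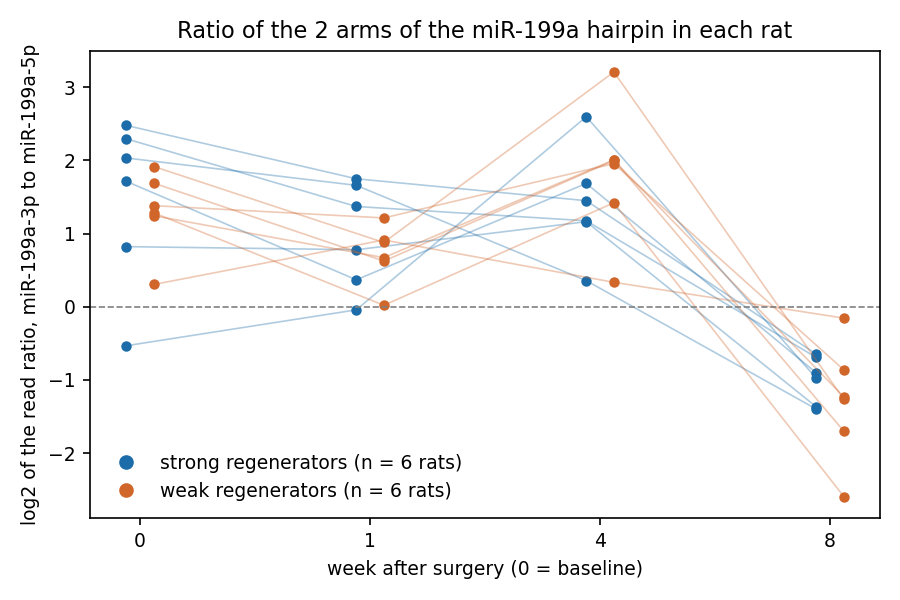
Log2 of the read ratio of miR-199a-3p to miR-199a-5p in each rat by week after surgery. Points are samples, lines join the samples of a rat, and the dashed line marks equal reads of both arms. All 12 points at week 8 lie below that line.

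Read against miR-214-3p, the 2 miR-199a arms again differed. The ratio of miR-214-3p to miR-199a-5p had a median of 2.02 at baseline and of 0.408 at week 8. It was lower in 12 of 12 rats, with a mean log2 change of -1.95 (SD 1.05, exact permutation p of 0.000488, adjusted 0.0022). The ratio of miR-199a-3p to miR-214-3p moved less, from a median of 1.58 to 0.975. It was lower in 11 of 12 rats, with a mean log2 change of -0.59 (SD 0.61, exact permutation p of 0.00781, adjusted 0.0234). Both calls were lost when the median was tested, at -2.19 and -0.47, with an adjusted exact permutation p of 0.0527 each. For the change of -2.19 the unadjusted exact permutation p was 0.0156, the smallest that a median of 12 rats allows. Neither of these ratios passed the test at weeks 1 and 4 (adjusted exact permutation p between 0.150 and 0.975).

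Arms of 1 hairpin moved apart in other miRNAs too, and miR-199a lay at one end of the range. Arms were paired where their names differed only in 3p or 5p, which left out hairpins whose arms carry different gene numbers. Of the hairpins paired in this way, 76 had both arms at a mean of at least 10 RPM. At week 8 the log2 change of the 3p arm minus that of the 5p arm had a median of 0.05 over these hairpins and ran from -2.65, for miR-199a, to 3.08, for miR-361. miR-532 followed miR-199a at -2.42. At the opposite end miR-30d was at 2.84 and miR-142, a hairpin of blood cells, at 2.43. With TMM scaling the 3p arm was called lower and the 5p arm not called in 10 hairpins, among them miR-199a. Both arms were called lower in 14 hairpins and both higher in 5. The arms were called in opposite directions in 15 hairpins, with the 3p arm lower in 5 and the 5p arm lower in 10. These counts turned on the scaling: with UniSp2 both arms were called lower in 75 of the 76 hairpins, miR-199a among them, and 0 had arms called in opposite directions. The arm difference of miR-199a moved little, to -2.58, and kept rank 1. At week 1 miR-199a had rank 5 from the most negative (-0.44), and at week 4 it had rank 74, near the other end (0.42). The arm differences of all 76 hairpins ran from -0.70 to 0.68 at week 1 and from -0.42 to 0.49 at week 4. Arms of many hairpins thus moved apart more at week 8, where the week and any handling of its samples cannot be told apart.

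**Figure D4:**
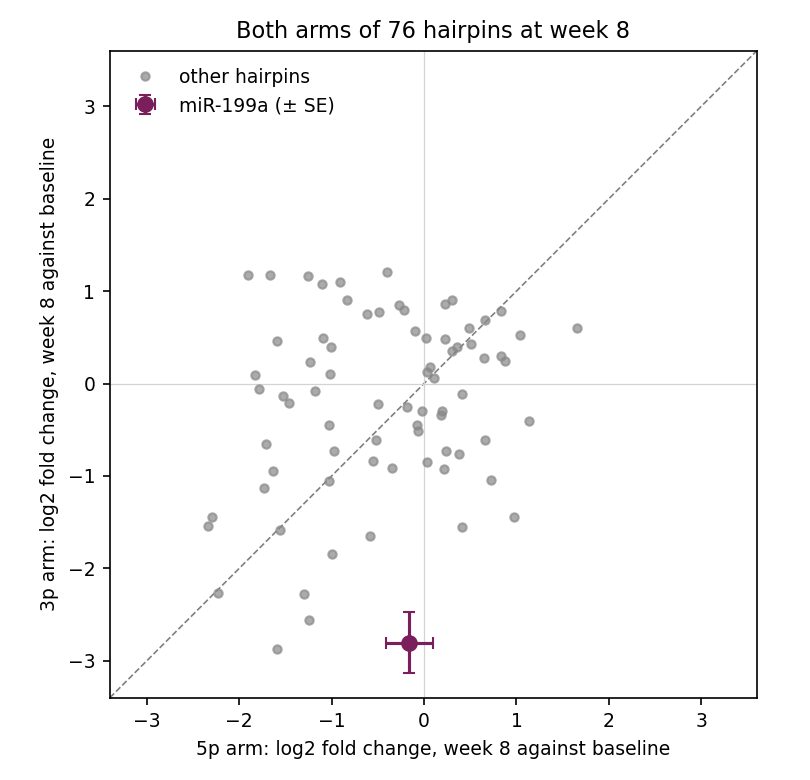
Log2 fold change of the 3p arm against that of the 5p arm, week 8 against baseline. Shown are the 76 hairpins paired by name with both arms at a mean of at least 10 RPM. Bars on miR-199a are ± SE, and the dashed line marks equal change. miR-199a is the point farthest below that line, at -2.80 for the 3p and -0.16 for the 5p arm.

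Across rats, miR-199a-3p and miR-214-3p were high or low together. At week 1 Pearson's r of log2(RPM + 1) was 0.89 over 12 rats (permutation p adjusted over 12 relations, 0.00096), with Spearman's rho of 0.85 (adjusted, 0.00924). At week 8 r was 0.82 (adjusted permutation p of 0.00846) and rho 0.77 (adjusted, 0.0278). Without the 2 rats farthest from the median these were 0.82 and 0.80. At baseline r was 0.83 (adjusted permutation p of 0.00962, rho 0.63, adjusted 0.0693), but it was 0.35 without 2 rats, so it rested on them. At week 4 r was 0.76 (adjusted permutation p of 0.00962, rho 0.67, adjusted 0.0593), and 0.58 without 2 rats.

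miR-199a-5p followed its own hairpin partner less closely. Its r with miR-199a-3p was 0.42 before surgery, then 0.76, 0.37 and 0.66 at the later time points in order. The week 1 and week 8 values passed by r (adjusted permutation p of 0.00962 and 0.0407) but not by rho (0.70, adjusted 0.0588, and 0.59, adjusted 0.0700). Without 2 rats they were 0.61 and 0.45. The r of miR-199a-5p with miR-214-3p was between 0.34 and 0.62, with adjusted permutation p between 0.0555 and 0.286. Whether these relations of the members differ from each other was not tested.

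**Figure D5:**
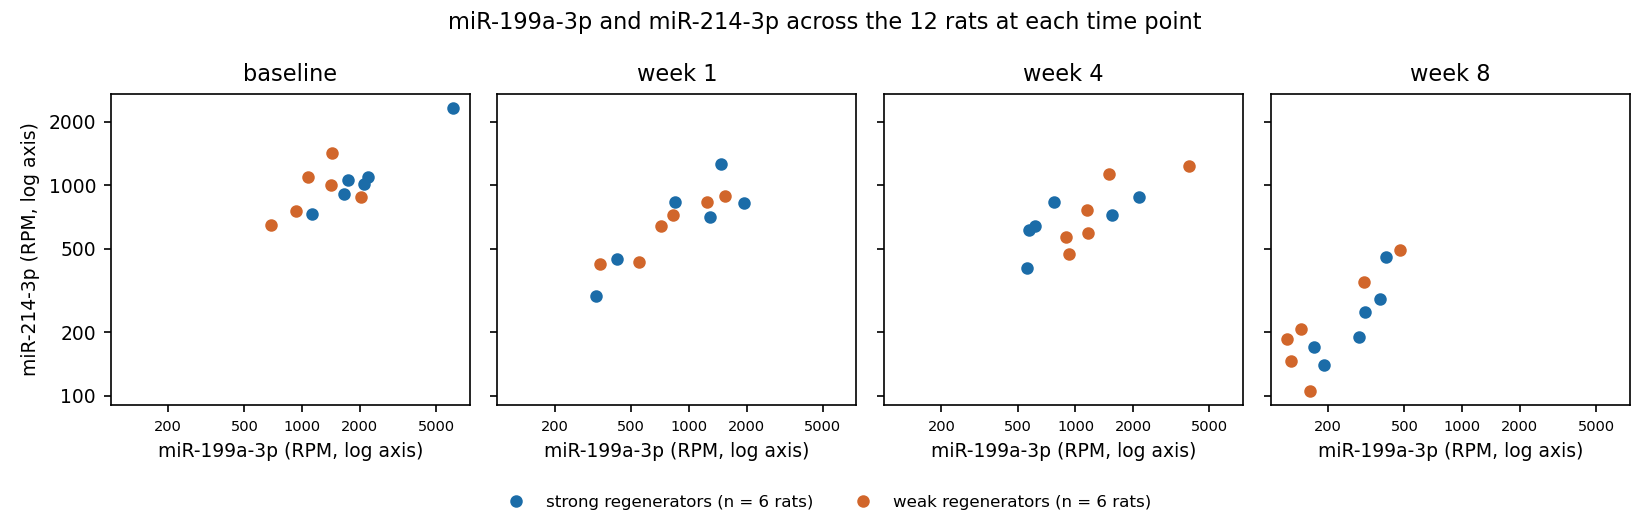
miR-199a-3p against miR-214-3p in each rat, in RPM on log axes, at baseline and at weeks 1, 4 and 8. Points are samples, coloured by regeneration group (6 rats each). The members rise together at weeks 1 and 8 (r of 0.89 and 0.82), and 1 strong regenerator stands alone at the upper right at baseline.

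It was also asked whether rats kept their levels over time. Of the 9 relations between baseline and a later week, 1 passed by r, that of miR-214-3p at week 8 (r of 0.73, adjusted permutation p of 0.0482). By rho it did not pass (0.58, adjusted 0.233), and without 2 rats r was 0.50.

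The miRNAs with the pattern most like each member were sought over the 48 samples, whose levels share the time points and the totals. For miR-199a-3p they were miR-99b-5p (r of 0.95), miR-125a-5p (0.93), miR-24-3p (0.93), miR-125b-5p (0.93) and miR-152-3p (0.92). miR-214-3p was as close, at 0.93, but miR-199a-5p was at 0.28. For miR-214-3p the leading miRNAs were miR-152-3p (0.94), miR-24-3p (0.92), miR-99b-5p (0.91), miR-125a-5p (0.91) and miR-30d-5p (0.91), and 4 of these 5 were also on the list for miR-199a-3p. For miR-199a-5p they were miR-497-5p (0.78), miR-143-5p (0.69), miR-23b-3p (0.69), miR-204-5p (0.68) and miR-99b-3p (0.68). The miR-99b hairpin was thus split in the same way, with its 5p arm beside miR-199a-3p and its 3p arm beside miR-199a-5p. miR-99b-5p changed at week 8 by -1.83 on the log2 scale (SE 0.25, edgeR FDR 1.5e-08), and miR-99b-3p by 0.10 (SE 0.20, FDR 0.742).

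Other miRNAs of mesenchymal cells, including smooth muscle and fibroblasts, moved in both directions. Of a list of 11, 5 were called lower at week 8 and 1 higher, where 28.1% and 14.8% of all miRNAs tested were. All 11 had a mean of at least 10 RPM, and of the 310 such miRNAs 197 were called in either direction. The median log2 fold change of the list was -0.30, against -0.13 over the 310 miRNAs with at least 10 RPM. The lower ones were miR-152-3p (-2.27), miR-125b-5p (-2.09), miR-99a-5p (-1.002), miR-218a-5p (-0.54) and miR-100-5p (-0.43). The higher one was the smooth muscle miRNA miR-145-5p (0.87), which with UniSp2 scaling was lower (-1.07). With that scaling all 11 of the list were called lower, as were 76.9% of all miRNAs. With RLE size factors 3 of the list were called lower at week 8 and 1 higher, where 21.9% and 16.5% of all miRNAs tested were. At weeks 1 and 4 the call in this list was miR-152-3p, lower by -0.54 (FDR 0.0483) and by -0.68 (FDR 0.0243). Of all miRNAs tested, 7.78% and 4.03% were called lower at these weeks. With UniSp2 scaling 3 and 4 of the list were called lower, where 13.8% and 10.9% of all miRNAs were. Among 11 miRNAs with known roles in osteoblasts, 4 were called lower and 4 higher at week 8, where 28.1% and 14.8% of all miRNAs were. With UniSp2 scaling 10 were lower, where 76.9% of all miRNAs were.

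Markers of blood cells were read beside these changes because plasma carries RNA shed by them. Of 6 platelet miRNAs, 3 were called lower at week 8, miR-24-3p (-1.49), miR-21-5p (-0.91) and miR-28-3p (-0.61), where 28.1% of all miRNAs tested were. Of the 310 miRNAs with a mean of at least 10 RPM, 197 were called in either direction at that week. miR-223-3p (0.12, FDR 0.462), miR-126a-3p (0.18, FDR 0.207) and miR-191a-5p (0.03, FDR 0.840), also abundant in platelets, were not called at week 8. With RLE size factors miR-126a-3p was called higher (0.32, FDR 0.0334). At weeks 1 and 4, 0 platelet miRNAs were called. With UniSp2 scaling 2 and 1 were called lower at these weeks, where 13.8% and 10.9% of all miRNAs were. The summed share of the list ran from 10.3% to 16.5% of reads at baseline and from 6.91% to 12.8% at week 8, and no member of it was at 0. Of 5 red cell miRNAs, 4 were called higher at week 1, and 3 were called higher and 1 lower at week 8, where 12.5% and 14.8% of all miRNAs tested were called higher. Their summed share ran from 10.3% to 20.2% at baseline and from 17.8% to 31.2% at week 8. With UniSp2 scaling 0 red cell miRNAs were called at week 1, and all 6 platelet and all 5 red cell miRNAs were called lower at week 8, where 76.9% of all miRNAs were. The part of these cells in the changes of the members was not tested, and fewer cells and less RNA per cell cannot be told apart in plasma.

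Of the remaining lists, with TMM scaling, 3 of 5 leukocyte miRNAs were called lower and 2 higher at week 8. Of 4 liver miRNAs, 2 were called lower and 1 higher. Over all miRNAs tested, 28.1% were called lower and 14.8% higher at that week. Of the 310 with at least 10 RPM, 197 were called in either direction. At week 1, 3 of 4 liver miRNAs were called higher, where 12.5% of all miRNAs tested were. Of 4 muscle miRNAs 0 were called at weeks 1, 4 and 8 (the count of those tested was 3 at week 1). Of all miRNAs tested, 20.2%, 4.19% and 42.9% were called at these weeks. The directions at week 8 turned on the scaling, since with UniSp2 all 5 leukocyte, all 4 liver and all 4 muscle miRNAs were called lower. So were 76.9% of all miRNAs. At week 1 UniSp2 scaling left 2 liver miRNAs called higher, and 2 leukocyte and 2 muscle miRNAs were called lower. Of all miRNAs tested with that scaling, 0.714% were called higher and 13.8% lower.

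Strong and weak regenerators were compared to ask whether the members tracked the healing outcome. Over all time points 0 of the 645 miRNAs were called by edgeR (0%, with 64 at an unadjusted p under 0.05, and 0 called by DESeq2). The smallest edgeR FDR was 0.103. The study itself reported miR-133a-3p as higher and miR-375-3p as lower in the strong regenerators, also before surgery. Neither is a member, and why the fits differ was not tested. The log2 difference of strong against weak was 0.20 (SE 0.22, FDR 0.834) for miR-199a-3p, 0.005 (SE 0.18, FDR 0.997) for miR-199a-5p and -0.007 (SE 0.15, FDR 0.997) for miR-214-3p.

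At baseline, before any defect was made, the strong regenerators had the higher medians of all 3 members, but the groups overlapped. The log2 differences were 0.98 (SE 0.41, unadjusted p of 0.0223, edgeR FDR 0.666) for miR-199a-3p, 0.70 (SE 0.35, FDR 0.703) for miR-199a-5p and 0.31 (SE 0.29, FDR 0.777) for miR-214-3p. None passed, where 0% of all miRNAs did, with 42 at an unadjusted p under 0.05 and 0 called by DESeq2. The value of miR-199a-3p rested in part on rat 29, without which it was 0.47 (FDR 0.868). At weeks 1, 4 and 8 the groups overlapped for each member, and 0 members were called, where 0%, 0% and 0.155% of all miRNAs were.

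Among the group comparisons of the members, the course of miR-199a-3p to week 4 had the smallest unadjusted p. Its level was lower than at baseline in 5 of 6 strong regenerators, with a median of 0.307 of baseline (0.251 to 1.91), and higher in 4 of 6 weak regenerators, with a median of 1.06 (0.571 to 2.76). At week 4 the strong regenerators had a lowest value of 561, a median of 694 and a highest of 2151 RPM, and the weak regenerators 889, 1154 and 3898 RPM. The difference of the changes was -1.61 on the log2 scale (SE 0.58, unadjusted p of 0.00826) and did not pass (edgeR FDR 0.532, where 0% of all miRNAs did, with 38 at an unadjusted p under 0.05 and 0 called by DESeq2). It was -2.03 without rat 5, a strong regenerator with a higher level at week 4 (FDR 0.0361), and -1.03 without rat 7, the weak regenerator with 3898 RPM (FDR 0.902). Without rat 29, the highest at baseline, it was -1.19 (FDR 0.814). Strong against weak was 0.98 at baseline and -0.63 at week 4 (SE 0.41, edgeR FDR 0.851), so the baseline difference made the larger part.

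For the other members the differences of the changes to week 4 were smaller. They were -0.95 (SE 0.49, FDR 0.705) for miR-199a-5p and -0.58 (SE 0.42, FDR 0.776) for miR-214-3p. At week 1 the differences were -0.80 (SE 0.58) for miR-199a-3p, -0.92 (SE 0.49) for miR-199a-5p and -0.28 (SE 0.42) for miR-214-3p, and none passed. At week 8, where miR-199a-3p and miR-214-3p fell in 6 of 6 strong and 6 of 6 weak regenerators, the differences were -0.71 (SE 0.59), -0.92 (SE 0.49) and -0.42 (SE 0.42) for miR-199a-3p, miR-199a-5p and miR-214-3p, with an FDR of 1.00 each.

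None of the ratios of the members passed between the groups. Of 15 ratio comparisons between strong and weak regenerators, the largest was that of miR-199a-3p to miR-214-3p at baseline. Its median was 1.91 in the strong and 1.15 in the weak regenerators, and the ranges of 1.54 to 2.64 and 0.985 to 2.29 overlapped. The difference of the mean log2 ratios was 0.59 (exact permutation p of 0.0281, adjusted over 15 tests 0.422). Of 9 tests of a difference between the groups in the change of a ratio, the smallest adjusted exact permutation p was 0.273.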

How the data were processed

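Small RNA of plasma from 12 rats at 4 time points (48 samples) was sequenced from single-adapter ligation libraries. Per the labels, reads were quality checked with FastQC 0.11.9 and MultiQC 1.10, trimmed with cutadapt 3.3 and mapped with Bowtie 1.3.0. The study's methods give a minimum length of 17 nt, mapping to the rat genome Rnor_6.0 with 2 mismatches and to miRBase with 1 mismatch, and miRDeep2, whereas the submitters' processing notes name GRCh38.p12. The authors deposited raw counts per mature miRNA and for the extraction spike-ins, without normalization. No strand or molecule identifiers were used, so depth covers counting error only. Members and lists were chosen with earlier results of these data known. Samples were grouped by the animal and time point in the labels.

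Counts of all 645 miRNAs were fitted with edgeR 4.0.16 (quasi-likelihood, TMM, R 4.3.3) on all 48 samples, with week and regeneration group as terms or 1 mean per group and week. As in the study, a filter on mean abundance after DESeq2's rule preceded the Benjamini-Hochberg adjustment, and FDR under 0.05 was a call. The 4 samples of a rat were treated as independent. Same-numbered samples are the same animal, and their deviations from group means correlated at 0.107 on average over 72 pairs, with 6 of 12 rats over 0.1. The rat was a blocking term in another fit. Pairs of samples of 1 group differed by a chi-square per degree of freedom of 17.3 to 340, so none was a copy. Tests were two-sided. Ratios of counts plus 1 were tested by exact sign flips over 12 rats or exact permutation of 924 splits, correlations by 100000 permutations. Named in full were the 3 members, then listed miRNAs called at week 8, and the 5 miRNAs most correlated with each member. miR-532, miR-361, miR-30d and miR-142 were named after their values were seen. Alternatives were RLE factors, library size, UniSp2 scaling, other filters, DESeq2 1.42.0, limma-voom 3.58.1 and leaving out each rat. UniSp2 scaling of the hairpin arms was added after seeing the data. Scripts were tested on simulated data. Sequences and coordinates are from RefSeq GRCr8, not the authors' build. Treatments, histology and bone volumes were not analysed here.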

Additional observations from a re-analysis of the deposited data

Results flagged for a closer look

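In 5 of 48 sets of 6 samples (3 levels and 3 ratios, in 2 groups at 4 time points), 1 sample lay far from the other 5 relative to their range. The nominal rate of about 1 in 20 sets was not computed from these data. It need not hold here, since the sets share rats and samples. At baseline, rat 29 was far above the other strong regenerators, with 6155 RPM of miR-199a-3p (next highest 2216) and 2334 RPM of miR-214-3p (next highest 1097). At week 4, rat 7 stood above the other weak regenerators with 3898 RPM of miR-199a-3p (next highest 1489). Also at week 4, rat 25 had 917 RPM of miR-199a-5p (next highest 421) and, in turn, the lowest log2 ratio of miR-214-3p to miR-199a-5p among the weak regenerators, -0.62 (next lowest 0.78).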

How the results depend on the processing

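The week 8 calls of miR-199a-3p and miR-214-3p against baseline and against week 4 held in every alternative run, including without each rat. UniSp2 scaling gave log2 changes of -0.83 (miR-214-3p, week 1), -1.13 and -0.85 (miR-199a-5p and miR-214-3p, week 4) and -2.14 (miR-199a-5p, week 8), all past the threshold, and turned miR-199a-5p from week 4 to week 8 to -1.01, past it. It also turned, without a call, miR-214-3p from week 1 to 4 (-0.0254), and strong against weak for miR-199a-5p over all time points (-0.15) and miR-214-3p at week 1 (-0.07). Calls over all miRNAs moved from 27 to 63 at week 4, 255 to 497 at week 8 and 213 to 460 from week 4 to 8. The miR-199a-3p call at week 1 was lost with no filter (-0.84, FDR 0.102), filterByExpr (-0.88, FDR 0.0537), limma-voom (-0.81, FDR 0.0909) and the replicate block (-0.76, FDR 0.0662). miR-214-3p at week 1 gained a call with RLE factors (-0.56), DESeq2 (-0.56) and the block (-0.51). The block changed no other call of a member and gave 4 calls in place of 1 between weeks 1 and 4, where RLE, library size, UniSp2 and limma-voom gave 0. Week 1 calls over all miRNAs were 52, and 31 with filterByExpr, 32 with library size and 21 with no filter. miR-199a-5p gained a call at week 4 with library size (-0.82) and from week 4 to 8 with RLE (0.72), filterByExpr (0.68) and DESeq2 (0.72). Strong against weak turned without a call for miR-214-3p over all time points with library size (0.0601), limma-voom (0.0111) and without week 8 (0.0354), and at week 8 for miR-199a-5p with limma-voom (0.0385) and miR-214-3p with library size (0.0102). The single miRNA called at that week was lost with DESeq2, UniSp2 and week 8 alone. Tested by the median of the differences, the ratio changes that had passed were -0.65 (arms, week 1), -2.93 (arms, week 8), -0.47 (miR-199a-3p to miR-214-3p, week 8) and -2.19 (miR-214-3p to miR-199a-5p, week 8). Each had an adjusted exact permutation p of 0.0527, so these 4 calls were lost. For the changes of -2.93 and -2.19, lower in 12 of 12 rats, the unadjusted exact permutation p was 0.0156. The median test allows no smaller p with 12 rats, so it could not separate these 2 further from no change. The cause of the changes under these alternatives was not tested.

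Without each rat in turn, the week 1 change ran from -0.96 to -0.63 for miR-199a-3p (call lost without 9 rats) and from -0.62 to -0.50 for miR-214-3p (call gained without rat 3 or 6). miR-199a-5p ran from -0.88 to -0.56 at week 4 (called without rat 6, 7, 25 or 26), from -0.40 to 0.12 at week 8, and from 0.35 to 0.80 from week 4 to 8 (called without 8 rats). miR-214-3p from week 1 to 4 ran from -0.0444 to 0.20. Strong against weak over all time points ran from -0.0914 to 0.15 for miR-199a-5p and from -0.17 to 0.14 for miR-214-3p. By week it ran from -0.0083 to 0.44 (miR-214-3p, week 0), -0.13 to 0.46 (miR-199a-3p, week 1), -0.14 to 0.17 (miR-214-3p, week 1), -0.36 to 0.0203 (miR-199a-5p, week 4), -0.36 to 0.27 (miR-199a-5p, week 8) and -0.33 to 0.20 (miR-214-3p, week 8). The difference in the change of miR-199a-3p to week 4 ran from -2.03 to -1.03 (called without rat 5, which left 9 calls over all miRNAs in place of 0). The arm ratio change ran from -0.64 to -0.46 at week 1 (lost without 9 rats) and from -0.0368 to 0.40 at week 4, and that of miR-199a-3p to miR-214-3p from -0.10 to 0.11 at week 4. Strong minus weak of the log2 arm ratio ran from -0.0367 to 0.57 at week 0 and -0.0423 to 0.19 over the mean of the weeks. For miR-199a-3p to miR-214-3p it ran from 0.50 to 0.76 at week 0 (adjusted p of 0.0325 without rat 3) and -0.0559 to 0.21 at week 1. For miR-214-3p to miR-199a-5p it ran from -0.0372 to 0.30 at week 1, -0.30 to 0.15 at week 4, -0.29 to 0.12 at week 8 and -0.18 to 0.0217 over the mean. Calls over all miRNAs at week 1 ran from 24 to 53.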
